A study of Mus musculus with 2 samples.

Results

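The genes described here are 45 genes that germ cells use to form, to silence transposons through piRNAs and to carry out meiosis. The list is one of gene names, and its rule uses no score. All 45 were found in the mouse gene table and all 45 had a value, among 21225 protein-coding genes with one. Replication timing was measured in mouse embryonic stem cells of the line 46C (strain 129P2/Ola), known as a reporter line with GFP placed in the neural gene Sox1, kept on gelatin with serum and leukemia inhibitory factor. One group was the cells sorted in early S phase and the other the cells sorted in late S phase, with 1 library each. Both had taken up 50 µM bromodeoxyuridine (BrdU, a thymidine analogue built into new DNA) for 2 h, and neither carried a further treatment. BrdU-labelled DNA from 10000 sorted cells was precipitated, amplified and sequenced, and the authors joined both libraries in 1 score per position, smoothed over 300 kb.

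A positive score was taken to mean early replication, because the name of the deposited table puts early before late. Were that order the other way round, early and late would change places in everything below. Nothing used here states the scale, log base or zero of the score, so no value is read as a fold. Each gene took the score of the position nearest to its midpoint, which lay at most 4.67 kb away. There was no replicate library, so the experimental error is unknown and no test could be made. The read depth is also unknown, because the values carry no counts. As a measure of local steadiness only, the standard deviation over the 42 to 53 positions within 150 kb of a gene was 0.15 in the median gene and at most 0.52. RNA was not measured, so the identity of the cells was not checked against marker genes.

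piRNAs are short RNAs that guide Piwi proteins to transposon transcripts and, in the fetal male germ line, to transposon DNA. In meiosis, homologous chromosomes are cut by Spo11, repaired with the help of Dmc1, and held together by the synaptonemal complex and by meiotic forms of cohesin. In embryonic stem cells many of these genes are kept silent or low, by DNA methylation of CpG-rich promoters and by a Polycomb complex that contains Max, Mga and E2f6. Silent tissue-specific genes often replicate late and active genes early, which makes the timing of silent germline genes a question of its own.

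Most of the germline genes had early scores, and many of these were only moderately early. Of the 45 genes 39 (86.7%) lay above 0, beside 73.5% of protein-coding genes. Their median was 0.87 (quartiles 0.62 and 1.51), beside 1.02 for protein-coding genes. The 95% order-statistic interval of that median, 0.70 to 1.42, treats the 45 genes as independent draws and covers no experimental error. It includes the 1.02 of protein-coding genes. Scores above 0 and up to 1 were found for 19 of the 45 (42.2%), beside 23.0% of protein-coding genes, a range chosen after the values were seen. Above 1.5 lay 12 of the 45, beside 26.9% of protein-coding genes. Below -1 lay 1 gene, Dazl, beside 9.59%. The list of 45 thus held a smaller share of late genes than protein-coding genes as a whole, a difference that was not tested. Its median was lower by 0.15, but its mean was higher, 0.89 beside 0.67, so the list as a whole was neither earlier nor later on both measures. The difference of the medians was also as small as -0.024 with scores read at the lower-coordinate end and -0.059 at start sites, and it turned to 0.24 against all annotated genes.

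**Figure D1:**
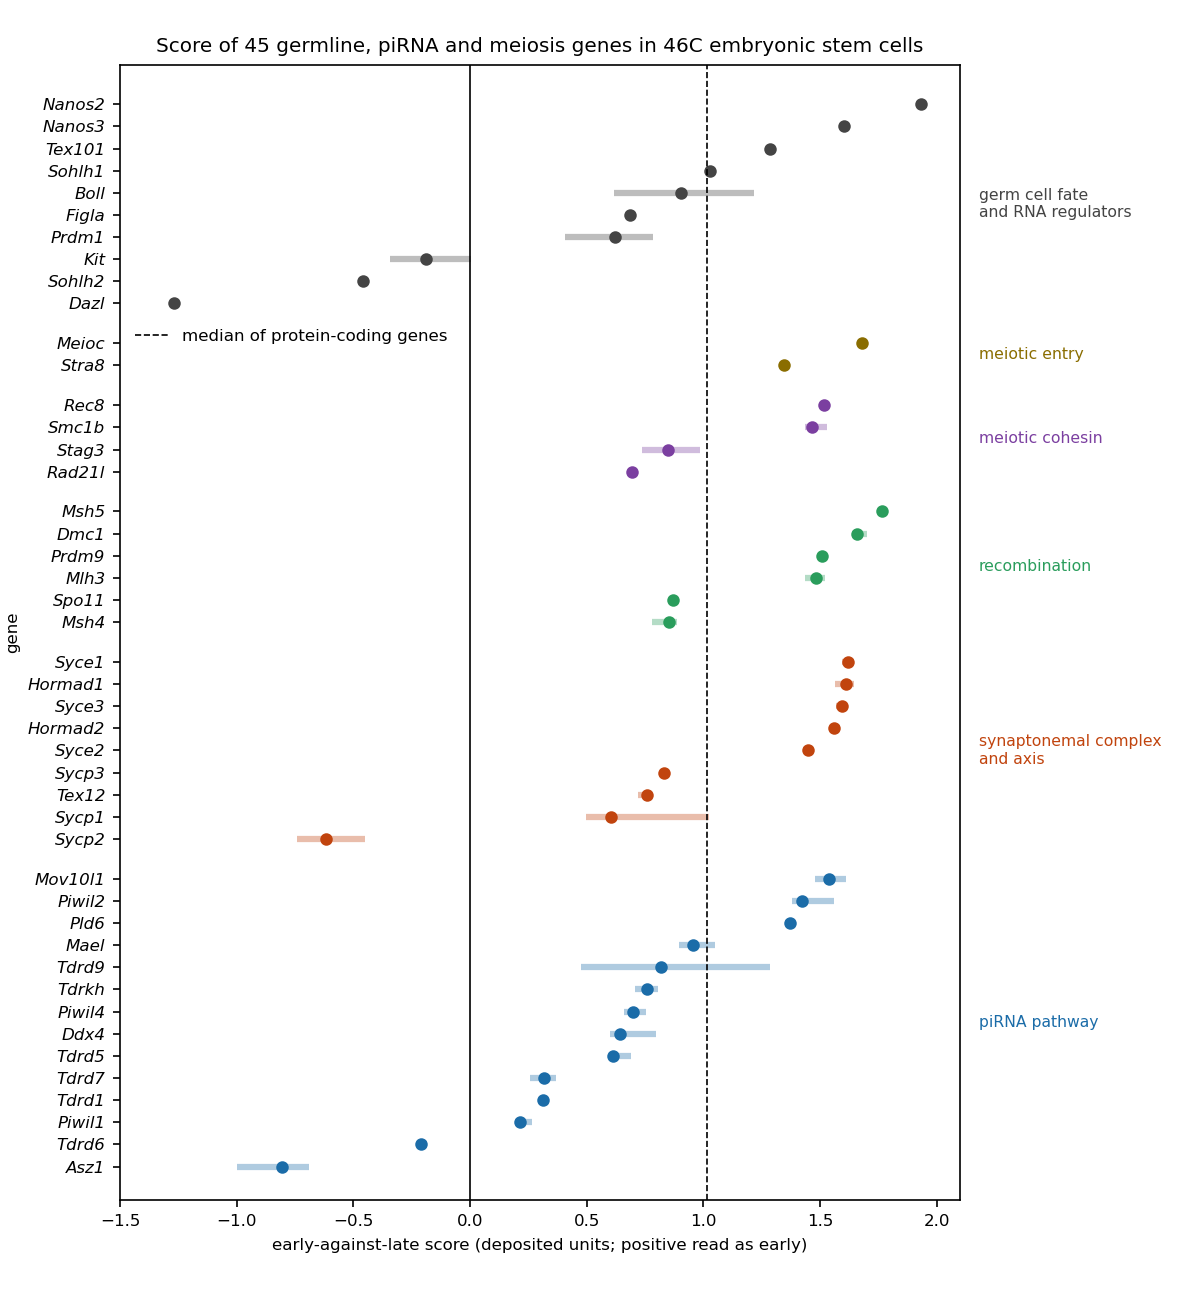
Points give the early-against-late score at the midpoint of each of the 45 genes, in deposited units, grouped and coloured by role. Bars span the scores at both gene ends, the solid line marks 0 and the dashed line the median of protein-coding genes (1.02). A reader should see 6 genes left of 0, with Dazl farthest at -1.27, and the piRNA pathway genes mostly between 0 and 1.

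The piRNA pathway genes were the group with most of its members between 0 and 1. Of the 14 genes 12 lay above 0, beside 73.5% of protein-coding genes, and 14 genes are too few to set apart from that share. Above 0 and up to 1 lay 9 of the 14, beside 23.0%, and the median was 0.67, beside 1.02. This holds for the listed genes. Of further piRNA genes in the wider set below, Henmt1 had 0.65, but Gtsf1 (1.55), Exd1 (1.56), Fkbp6 (1.60) and Pnldc1 (1.64) lay above 1. The Piwi proteins themselves differed. Piwil2 (Mili), which is active from fetal germ cells onward, had 1.42 (chromosome 14, 70372477 to 70436898). Piwil4 (Miwi2), the nuclear Piwi protein of fetal germ cells, had 0.70, and Piwil1 (Miwi), the Piwi protein of spermatocytes and spermatids, had 0.22. Piwil1 lay in a local dip, with 0.61 at 200 kb on the lower-coordinate side and 1.27 at 200 kb on the other. Its mean over the positions within 150 kb was 0.50, so the place of Piwil1 near 0 holds for its midpoint and is narrower than the smoothing.

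Tudor domain proteins bind the methylated arginines of Piwi proteins and build the granules in which piRNAs are made. The 6 such genes in the list were lower than most protein-coding genes. Tdrd1, whose product binds Mili, had 0.31, and Tdrd7, a chromatoid body gene also used in the lens, had 0.32. Tdrd5 had 0.61, Tdrkh, which works at the mitochondrial surface, 0.76, and the helicase gene Tdrd9 0.82. Tdrd6, another chromatoid body gene, was the lowest of these at -0.21 (chromosome 17, 43615334 to 43631846). All 6 lay below the median of protein-coding genes, but Tdrd12 (1.36) and Rnf17 (1.25) of the wider set described below did not. Tdrd9 is 97.4 kb long and its ends differed, with 1.29 at the end of its start site and 0.47 at the other, so its value depends on the place at which it is read.

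The factors that make or receive piRNA precursors were divided. Mov10l1, the helicase that binds precursor transcripts, had 1.54 and Pld6, the mitochondrial nuclease that cuts them, 1.37. Mael, a factor of transposon silencing, had 0.95 and the germ cell helicase gene Ddx4 (Vasa) 0.64. Ddx4 also lay in a dip, and its mean within 150 kb was 1.01. Asz1 (Gasz), which anchors piRNA factors to mitochondria, was late at -0.80 (chromosome 6, 18050964 to 18109061). Asz1 sits between Wnt2 at -0.57 and Cftr, the chloride channel gene of cystic fibrosis, at -1.06. It had -0.69 at the end facing Wnt2 and -1.0 at the end facing Cftr, where its start site lies, so both ends were late as well as the midpoint.

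Genes of the synaptonemal complex and the chromosome axis were mostly early, with 8 of 9 above 0, beside 73.5% of protein-coding genes. A group of 9 is too small to set apart from that share. Their median was 1.45, beside 1.02. Among the central element genes, Syce1 had 1.62, Syce3 1.59 and Syce2 1.45, while Tex12, whose product pairs with Syce2, had 0.76. Both axis genes of the Hormad family, which monitor synapsis, were early, Hormad1 at 1.61 and Hormad2 at 1.56. The filament and lateral element genes all had lower scores than these 5 above 1. Sycp1, which encodes the transverse filament, had 0.60 at its midpoint, 0.50 at its lower-coordinate end and 1.03 at the other, where it starts. The lateral element gene Sycp3 had 0.83 and its partner Sycp2 -0.62 (chromosome 2, 178345295 to 178407776). Sycp2 and Sycp3, whose products bind each other, thus lay on opposite sides of 0. Sycp2 was at a steep transition, with Phactr3 on one side at 0.057, Ppp1r3d on the other at -0.76, and a range of 2.21 within the surrounding 1 Mb.

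All 6 recombination genes were early, beside 73.5% of protein-coding genes, with a median of 1.5, beside 1.02. A group of 6 is too small to set apart from that share. Msh5, which with Msh4 forms a MutS complex that stabilises crossover intermediates, had 1.77 (chromosome 17, 35028605 to 35046997). Its partner Msh4 had 0.85 in an early run of only 0.483 Mb, the shortest that held any of the 45 genes with an early score. Dmc1, the meiotic strand exchange protein gene, had 1.66, and Prdm9, the methyltransferase gene that places recombination hotspots, 1.51. Mlh3, a MutL homologue that acts at crossovers, had 1.48, and the break-forming enzyme gene Spo11 had 0.87. None of these genes was near 0, the lowest being Msh4.

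The 4 genes of meiotic cohesin, the ring that holds sister chromatids, and both genes of meiotic entry also lay above 0. The share of protein-coding genes above 0 was 73.5%, and these groups are too small to set apart from it. Among the cohesin genes Rec8, a kleisin, had 1.52 and Smc1b 1.47. Stag3 had 0.85 and Rad21l, the other meiotic kleisin, 0.70. Stra8, the retinoic acid target that starts meiosis, had 1.35, and Meioc, which keeps cells in the meiotic programme, 1.68.

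The regulators of germ cell fate had the widest spread, from the earliest to the latest gene of the list. Nanos2, which maintains male germ line stem cells, had 1.93 (chromosome 7, 18987524 to 18988962), above 99.4% of protein-coding genes. Its relative Nanos3, needed by primordial germ cells, had 1.60. Nanos2 sat near an edge all the same, since the score was -0.74 at 500 kb on its lower-coordinate side. Tex101, a surface protein gene of male germ cells, had 1.28, and the Dazl relative Boll 0.91 at its midpoint, 1.22 at one end and 0.62 at the other. Prdm1 (Blimp1), which specifies primordial germ cells, had 0.62. The oocyte factor gene Figla had 0.69. Sohlh1 and Sohlh2 encode basic helix-loop-helix proteins that act together in spermatogonia and oocytes. Their genes lay on opposite sides of 0, Sohlh1 at 1.03 and Sohlh2 at -0.46 (chromosome 3, 55182044 to 55209957).

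Dazl, an RNA-binding protein gene that licenses germ cells for meiosis, was the latest at -1.27 (chromosome 17, 50279393 to 50293620), above only 4.65% of protein-coding genes. It lay inside a late run of 4.6 Mb, 1620 kb from the nearest end of that run. The score stayed between -1.27 and -0.43 over the 1 Mb around it. Its neighbours Rftn1 (-1.17) and Plcl2 (-1.09) were late as well. Of the 6 genes below 0 it was the farthest from a change of sign. Tdrd6 was 371 kb from the end of its late run, Sohlh2 334 kb, Asz1 282 kb, Sycp2 132 kb and Kit 40.5 kb.

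Kit, the receptor gene for stem cell factor in germ cells, blood and pigment cells, lay on a boundary at -0.19 (chromosome 5, 75574987 to 75656722). At its start site the score was 0.0048 and at its far end -0.34. The late run that held it was 0.472 Mb long. Kit and Tdrd6 were the genes whose side changed with zero at the autosomal median, where they had 0.12 and 0.095. Above that zero lay 41 of the 45 genes, beside 78.5% of protein-coding genes. The other 4, Dazl, Asz1, Sycp2 and Sohlh2, were below 0 at that zero point and at both gene ends too. A higher split, at 0.5, also puts Piwil1 (0.22), Tdrd1 (0.31) and Tdrd7 (0.32) on the lower side. It leaves 36 of the 45 genes above, beside 64.0% of protein-coding genes.

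**Figure D2:**
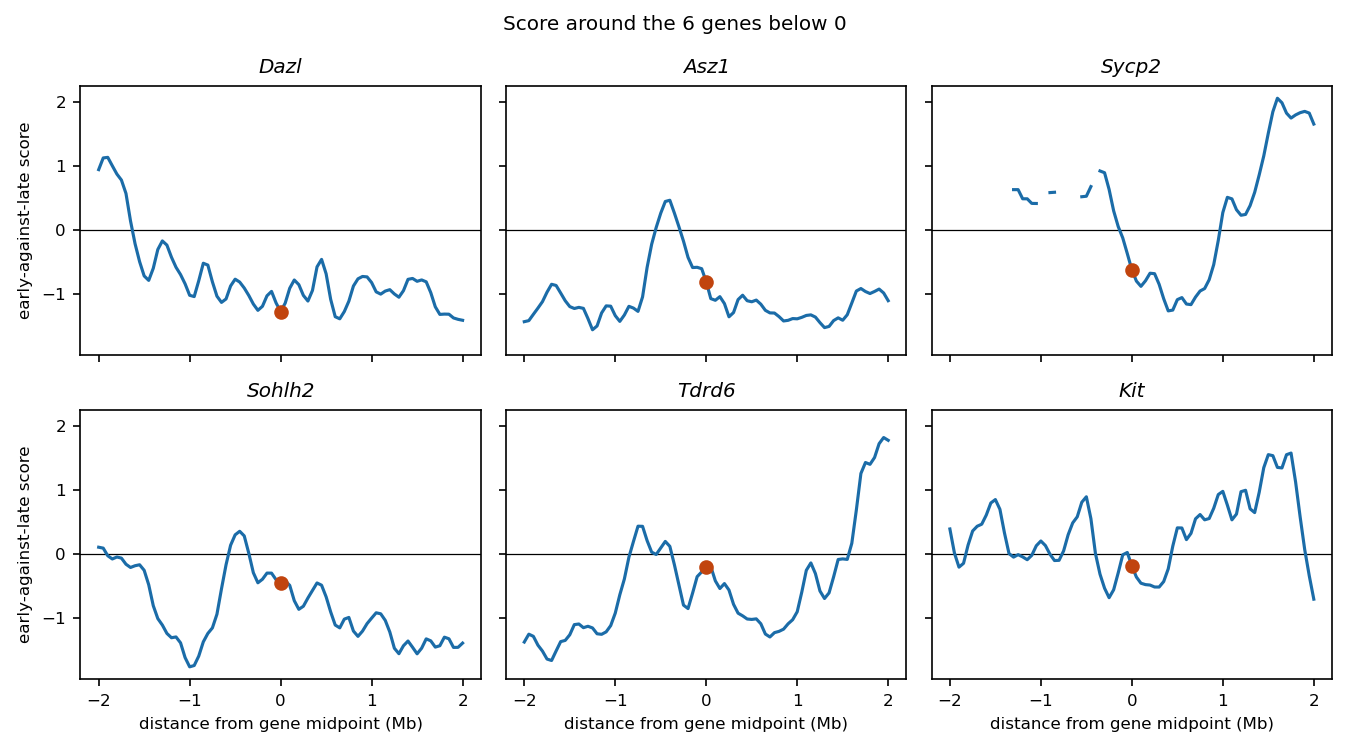
Each panel plots the early-against-late score, in deposited units, against the distance in Mb from the midpoint of 1 of the 6 genes below 0, with the gene marked by a point; breaks in a line are places without a position within 50 kb. Dazl (-1.27) lies inside a broad late stretch, whereas Asz1, Sycp2, Sohlh2, Tdrd6 and Kit lie on slopes or next to short early peaks.

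Closeness to a change of sign was about as common among the germline genes as among other genes. Of the 39 early ones 12 (30.8%) lay within 300 kb of the end of their early run, beside 32.4% of early protein-coding genes. The median distance to that end was 529 kb in both. The score changed by at least 1 within the surrounding 1 Mb for 30 of the 45 genes (66.7%), beside 71.1% of protein-coding genes. Neighbours on a chromosome were few, so most scores came from separate places. Mov10l1 and Syce3, 381 kb apart on chromosome 15, had 1.54 and 1.59, and Nanos3 and Syce2, 705 kb apart on chromosome 8, had 1.60 and 1.45. Tdrkh and Hormad1, 1150 kb apart on chromosome 3, had 0.76 and 1.61. The 45 genes were spread over 17 autosomes, with none on X or Y.

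Scores of the germline genes were highest where genes are dense and lowest where they are sparse, with no steady rise between. Over the 45 genes Pearson's r with the number of other protein-coding genes within 500 kb was 0.66 and Spearman's rho 0.75, beside 0.29 and 0.44 over 21225 protein-coding genes. These are correlations across genes of 1 pair of libraries; genes share those libraries and, where close, the smoothing, and are not replicates. All 16 germline genes with 20 or more such neighbours lay above 0, with a median of 1.58. In such places 6733 of 8317 protein-coding genes (81.0%) lay above 0, with a median of 1.48. The correlation over all genes thus includes late genes in gene-dense places. The germline genes include none, the lowest of the 16 having 0.85. Whether this makes the correlations differ was not tested. With 10 to 19 neighbours 17 of 19 lay above 0, beside 82.2%, but their median was 0.70, beside 1.11. With 5 to 9 neighbours 5 of 7 lay above 0, beside 70.2%, and their median of 0.85, beside 0.58, was higher than that of the class with 10 to 19. With 0 to 4 neighbours 1 of 3 lay above 0, beside 31.1%, and the medians were -0.19 and -0.56. Those 3 were Dazl, Kit and Prdm1, with 2 neighbours each. Of the 19 germline genes between 0 and 1, 13 were in the class of 10 to 19 neighbours, and 8 of these belonged to the piRNA pathway. That is 68.4% of the 19 germline genes in the class, beside 27.2% of the 6342 protein-coding genes in it. The range of 0 to 1 was chosen after the values were seen, so this contrast is a description only.

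**Figure D3:**
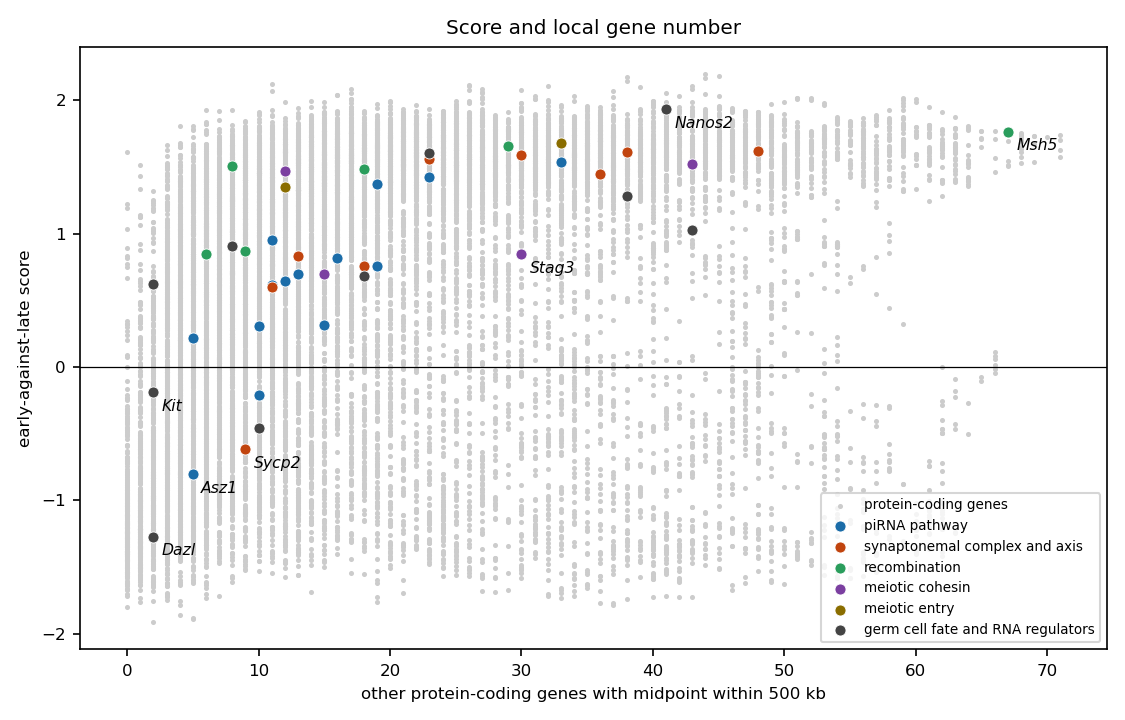
The early-against-late score, in deposited units, is plotted against the number of other protein-coding genes with a midpoint within 500 kb. Grey points are 21225 protein-coding genes and coloured points the 45 germline genes by role. Germline genes with 20 or more neighbours all lie above 0, while Dazl, the lowest at -1.27, has 2.

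The promoter sequences of these genes have features that the timing does not set, and they are shown because CpG content and the E-box bear on how such genes are kept silent in stem cells. RefSeq promoter windows of the build GRCm38.p6, the same coordinates as mm10, reach from 250 bases before to 50 after a start site and were given for 42 of the 45 genes. Piwil2, Tdrd6 and Spo11 had no entry. Sycp3, Mael and Sohlh1 are early genes with E-boxes and Dazl is the late gene with the most CpG-rich window. Capitals mark the words CACGTG (the E-box read by Max dimers), GCGGGA (an E2F type word) and CNCCTCAG (a Stra8 type word), each on either strand. Each line runs 5′ to 3′ along the gene's strand, at chr10:88459337-88459636 (+) for Sycp3, chr1:166238695-166238994 (-) for Mael, chr2:25847199-25847498 (-) for Sohlh1 and chr17:50293571-50293870 (-) for Dazl.
Sycp3: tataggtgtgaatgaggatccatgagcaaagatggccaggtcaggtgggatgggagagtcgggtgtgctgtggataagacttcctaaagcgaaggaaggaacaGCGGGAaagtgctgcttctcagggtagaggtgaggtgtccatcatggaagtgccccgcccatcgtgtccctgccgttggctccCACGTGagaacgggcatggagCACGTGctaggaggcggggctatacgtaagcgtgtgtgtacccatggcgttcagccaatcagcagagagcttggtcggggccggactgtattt
Mael: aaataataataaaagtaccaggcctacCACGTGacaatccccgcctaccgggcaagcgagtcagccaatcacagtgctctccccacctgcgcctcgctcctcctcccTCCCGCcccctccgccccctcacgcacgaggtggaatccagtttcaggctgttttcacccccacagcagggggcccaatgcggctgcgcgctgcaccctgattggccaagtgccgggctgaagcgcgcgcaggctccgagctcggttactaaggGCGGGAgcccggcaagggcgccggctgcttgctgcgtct
Sohlh1: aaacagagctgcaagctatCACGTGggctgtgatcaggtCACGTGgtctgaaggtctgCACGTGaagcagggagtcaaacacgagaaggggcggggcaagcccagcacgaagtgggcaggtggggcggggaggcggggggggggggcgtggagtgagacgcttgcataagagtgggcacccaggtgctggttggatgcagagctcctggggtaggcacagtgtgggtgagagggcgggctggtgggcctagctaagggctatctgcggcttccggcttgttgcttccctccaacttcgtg
Dazl: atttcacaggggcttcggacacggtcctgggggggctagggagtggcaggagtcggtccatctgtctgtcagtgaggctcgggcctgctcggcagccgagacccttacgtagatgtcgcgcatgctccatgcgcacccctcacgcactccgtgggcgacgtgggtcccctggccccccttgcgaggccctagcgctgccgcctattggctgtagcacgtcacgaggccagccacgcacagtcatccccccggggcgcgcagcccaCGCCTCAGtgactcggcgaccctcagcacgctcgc

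The Sycp3 window held 2 E-boxes and 15 CpG dinucleotides, that of Mael 1 and 24, and that of Sohlh1 3 and 14. The Dazl window held 28 CpG dinucleotides, a Stra8 type word and no E-box. Taking the entry with the highest count per gene, 38 of 42 windows (90.5%) held at least 10 CpG dinucleotides, beside 60.9% of 17030 protein-coding genes with an entry. The median was 19.5, beside 15 for protein-coding genes. CpG number and score went separate ways over the 42 genes, with a Pearson's r of -0.10 and a Spearman's rho of -0.12. Nanos2, the earliest gene, had 0 CpG dinucleotides in its window and Dazl, the latest, had 28.

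The E-box was found in the windows of 15 of the 42 genes (35.7%), beside 9.11% of protein-coding genes with an entry and 7.15% of all 32851 windows in the table. Among genes with at least 10 CpG dinucleotides it was in 15 of 38 (39.5%), beside 12.6%. The Stra8 type word was in 12 of 42 (28.6%), beside 9.99% of protein-coding genes and 7.94% of all windows. The E2F type word was in 17 of 42 (40.5%), beside 29.0% of protein-coding genes and 20.0% of all windows, but among CpG-rich windows the shares were 44.7% and 44.1%. None of the 3 words contains another, and a window can hold several. A match is a description of the letters and says nothing of whether a factor binds.

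All 15 genes with an E-box in the window had scores above 0, with a median of 0.85 and a range of 0.22 to 1.61. Of the 27 genes without one 22 lay above 0, with a median of 1.28 and a range of -1.27 to 1.93. Among all 42 genes with a window 37 lay above 0, beside 73.5% of protein-coding genes with or without one. The share above 0 among protein-coding genes with an E-box is not given here, so no link of E-box and timing is drawn. None of the 5 late genes with a window (Dazl, Asz1, Sycp2, Sohlh2 and Kit) held an E-box. The Stra8 type word went the other way, in 3 of these 5 and in 9 of the 37 early genes with a window (24.3%). With 5 late genes these are counts only. The E-box genes included neither the earliest nor the latest gene of the list.

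**Figure D4:**
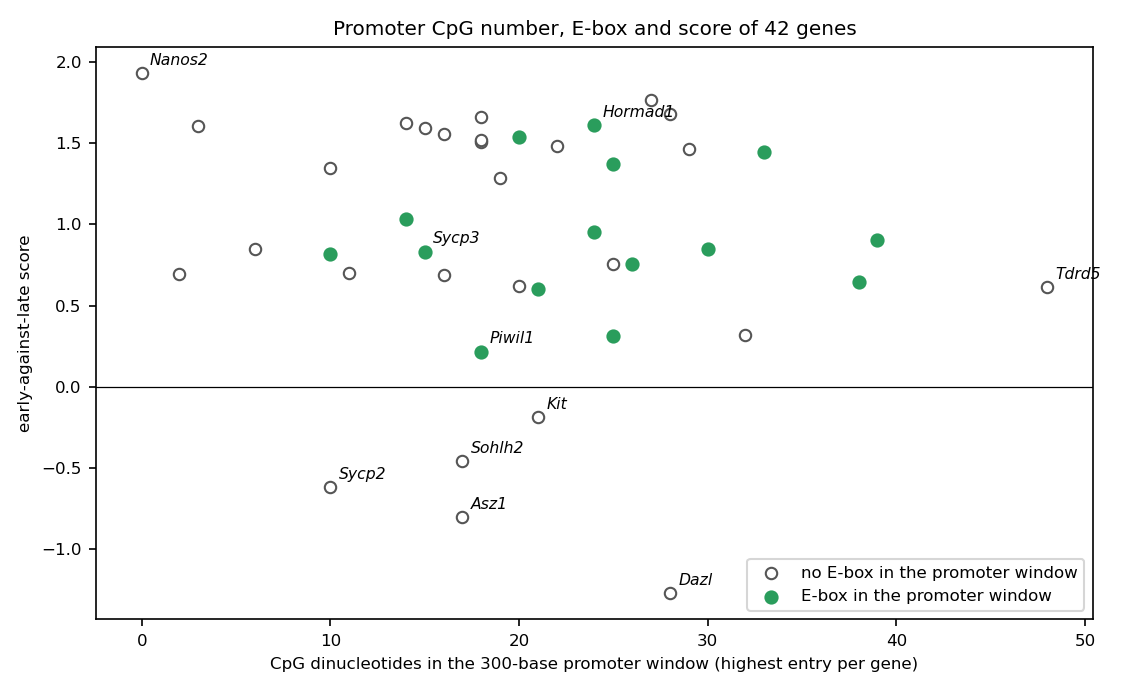
The early-against-late score, in deposited units, is plotted against the number of CpG dinucleotides in the 300-base promoter window for 42 genes; filled points have an E-box in a window and open points have none. The 15 filled points lie between 0.22 and 1.61, and the 5 points below 0 are all open.

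Several of these genes have a relative in the same protein family that dividing or somatic cells use. The scores of such pairs are set side by side here, with pairs chosen from textbook knowledge. Some pairs are close counterparts and others only members of 1 family, such as the Piwi genes and Ago2. The 9 partners were all early, beside 73.5% of protein-coding genes, and 9 genes are too few to set apart from that share. They ran from 0.69 to 1.58 with a median of 1.33, beside 1.02. In 6 of the 12 pairs reported the germline gene was below its partner and in 6 above, the median difference was -0.054, and 7 pairs differed by less than 0.5. Rad21, Ago2 and Stag3 each stand in several pairs, so the pairs are not separate, and the counts hold for these 12 pairs only. The helicase genes Mov10l1 (1.54) and Mov10 (1.51) were close, as were the MutL homologues Mlh3 (1.48) and Pms2 (1.44).

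Among the cohesin genes Smc1b (1.47) was near Smc1a (1.58), and Stag3 (0.85) somewhat below Stag1 (0.98) and Stag2 (1.05). The kleisins went the other way: Rad21, the kleisin of dividing cells, had 0.69, about the same as Rad21l (0.70) and 0.83 below Rec8 (1.52). In the MutS family Msh5 (1.77) was above Msh6 (1.12). The lowest values relative to a partner were in the piRNA pathway. Piwil1 was below the Argonaute gene Ago2 (1.40) by 1.19 and Piwil4 below it by 0.70, whereas Piwil2 was level with it. Ddx4 was below the general helicase gene Ddx3x (1.33) by 0.69 at the midpoints. Smc1a, Stag2 and Ddx3x are on chromosome X. Without these 3 pairs, the germline gene was below its partner in 3 of 9.

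**Figure D5:**
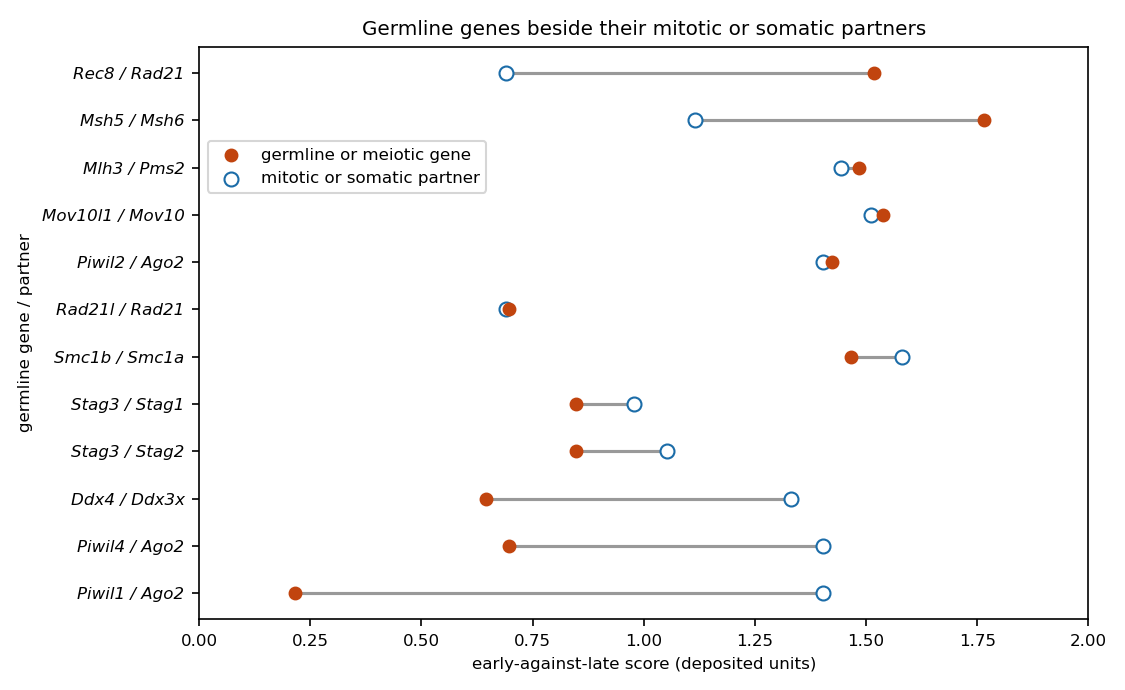
Each line joins the early-against-late score, in deposited units, of a germline gene (filled) with that of its mitotic or somatic partner (open), for 12 pairs sorted by their difference. Rec8 lies farthest above its partner and Piwil1 farthest below, and all points lie above 0.

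A wider set of 50 other germline and meiosis genes was named from textbook knowledge, with earlier results of these data known. It had 44 genes above 0 (88.0%), beside the same 73.5% of protein-coding genes. Their median of 1.24 (quartiles 0.53 and 1.55) was higher than the 0.87 of the 45 genes and than the 1.02 of protein-coding genes. Between 0 and 1 lay 13 of them (26.0%), beside 23.0% of protein-coding genes, so the higher share of moderately early scores in the 45 genes was not seen in the wider set. The latest were Mei4, needed for meiotic breaks, at -1.19, and the oocyte factor gene Lhx8 at -0.72. The earliest were Psmc3ip (Hop2), a helper of Dmc1, at 1.77, and Majin, which ties telomeres to the nuclear envelope in meiosis, at 1.80. Over both sets together 83 of 95 genes (87.4%) lay above 0, and the median was 1.16, beside 1.02 for protein-coding genes.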

How the data were processed

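The labels' protocols describe BrdU labelling, sorting by DNA content, sonication of the DNA to 100 to 600 bp, immunoprecipitation, whole-genome amplification and Ion Torrent libraries. Reads were aligned with Bowtie2 to mm10, per the submitters' processing notes. The authors deposited 1 score per position, early against late, smoothed over 300 kb; how reads were counted and scaled is not given in the sources used here. Smoothing blurs short domains, and whole-genome amplification can make coverage uneven, by an amount that 1 library per fraction does not show.

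Of 384798 positions 4 had no value. The number of unused columns with per-sample values was 0. Gene places were taken from the RefSeq annotation of GRCm38.p6, after 348 entries of scaffolds and alternate sequences were left out. A gene took the score nearest its midpoint, within 100 kb. A run is a stretch of positions that share a sign, and a gap over 300 kb ends it. Every member was named, in 6 role groups. Of the wider set the 2 highest and 2 lowest were named, with some piRNA and Tudor domain genes. Neighbours of the 4 lowest and 4 highest genes were looked up. The members, lists, words and alternatives were chosen with earlier results of these data known. Exons and introns were not analysed here. Some partner pairs are not reported here and enter no count. The steps were tested on simulated data. Computation used Python 3.11.15 with pandas 2.3.3, numpy 2.4.6 and scipy 1.17.1.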

Additional observations from a re-analysis of the deposited data

How the results depend on the processing

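There were 8 alternatives, of zero point, place in the gene, value per gene, distance, grouping and chromosomes. Over these the number of genes above 0 was 37 to 41 and the median 0.85 to 1.18. The totals differ: 37 is of 43 units with near genes joined, 38 of 42 genes with a start site, and 41 of 45. Where it was computed, the share of protein-coding genes above 0 was 73.6% to 78.5%. Above a split at 0.5 lay 36 of the 45, beside 64.0% of protein-coding genes. The mean was 0.89, beside 0.67 for protein-coding genes, so that the means differ in the opposite direction to the medians. The difference of the medians of germline and protein-coding genes, -0.15, stayed negative under these 8 alternatives (-0.18 to -0.024). Not all of them could change it. A moved zero point shifts both medians alike and keeps the order within each pair. The limits of 20 kb and of autosomes leave the germline median at 0.87. All 45 genes lay on autosomes and within 4.67 kb of their position. Against all annotated genes, which hold many late non-coding genes and pseudogenes, the difference turned to 0.24. Germline genes lay below their partner in 6 to 8 of 12 pairs, in 2 of 6 pairs with start sites given for both, and in 3 of 9 on autosomes; these last counts rest on fewer pairs. Counting genes within 1 Mb as 1 unit was not run for pairs. Tdrd6 turned to 0.095 and Kit to 0.12 with zero at the autosomal median, and Kit to 0.0048 at its lower-coordinate end, which is its start site. The mean within 150 kb moved 11 genes by more than the local standard deviation. By a separate rule, 3 of the 45 genes changed by over 1.5 times (Piwil1 to 0.50, Ddx4 to 1.01 and Tdrd6 to -0.33). Piwil1 was not among the 11, because its local standard deviation was 0.303. No paired analysis was possible because the deposited score joins both libraries in 1 value. The depth is unknown, so its limits cannot be given.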
